A study of Mus musculus with 8 samples.

Results

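Oligodendrocyte precursor genes were followed in the hippocampi of SAP97-cKO mice and their controls, with the question of whether they moved together with the genes of mature myelin. The 10 genes were chosen by symbol, as genes known to mark the cell type, with earlier results of these data already known. They are Pdgfra, Cspg4, Gpr17, Neu4, C1ql1, Lhfpl3, Tnr, Vcan, Sox6 and Nkx2-2, out of 25834 genes in the deposited table. All 10 had enough reads to be tested, as did 16251 genes in all. The hippocampus of 4 male controls and 4 male SAP97-cKO mice was sequenced, giving 1 RNA-seq library for each animal. SAP97-cKO animals carried 2 floxed alleles of Dlg1, the gene for SAP97, and Cre recombinase under the Nestin promoter (Nestin-cre+/-; SAP97fl/fl). This promoter is active in neural progenitors, which give rise to neurons, astrocytes and oligodendrocytes alike. Controls were littermates, for which the methods list mice with Cre alone, mice with the floxed alleles alone and wild-type mice. The genotype of the single control libraries is not stated in the sources used here, and an age is stated there for the tissue taken for western blots but not for the sequenced mice.

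Oligodendrocyte precursors are the dividing, NG2-positive cells of the adult brain from which new oligodendrocytes arise. They depend on platelet-derived growth factor through the receptor Pdgfra. On commitment they pass through a stage marked by Gpr17 and, later, by genes such as Enpp6 and Bcas1, before the myelin genes, Mbp and Mog among them, are switched on. Some of the 10 genes are not particular to precursors: Pdgfra and Vcan are also made by fibroblasts, Cspg4 by pericytes, Sox6 by interneurons and Tnr by some neurons.

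The libraries held 37388177 to 37426572 counts, and the precursor genes took 0.0412% to 0.0551% of them. Dlg1, counted over all of its exons and not only the floxed part, averaged 4338 ± 336 TMM-normalized counts in controls and 2393 ± 470.1 in SAP97-cKO (mean ± SD of 4 mice, here and below). The groups did not overlap (log2 fold change -0.86 ± 0.12 SE; edgeR, adjusted p = 0.143). Genes typical of hippocampal neurons, among them Prox1 of the dentate gyrus and Wfs1 of CA1, were read in every library. Choroid plexus genes varied widely between dissections. Their summed normalized counts in replicates 1 to 4 were 44695, 254397, 141917 and 6442 in controls. In SAP97-cKO they were 21176, 87406, 50421 and 3679, so that the replicate numbers ranked alike in both groups. Summed counts of 10 meningeal fibroblast genes were 9825 to 18006 in controls and 5948 to 9814 in SAP97-cKO.

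At the FDR of 0.25 that the study uses, 0 of the 10 precursor genes differed between genotypes in edgeR's quasi-likelihood test, where 0.295% of all genes tested were called. Limma-voom, with 0.308% of all genes called, also had 0 of them. DESeq2, with 6.75% of the 15293 genes it gave an adjusted p, had 2. Leaving out control replicate 1 raised the share of all genes called by edgeR to 10.2% and the members called to 3, and leaving out SAP97-cKO replicate 1 gave 4.32% and 1 member. At an unadjusted p under 0.05, edgeR had 2 of 10 higher and 0 lower in SAP97-cKO, beside 4.73% and 7.01% of all genes. These were Cspg4 and Sox6, the only members whose 4 SAP97-cKO libraries all lay above the 4 control libraries, as they did in 2.78% of all genes tested. The log2 fold changes (SAP97-cKO over control) ran from -0.15 for Nkx2-2 to 0.31 for Tnr. Their median was 0.054, beside -0.012 for all genes tested. In bulk tissue, fewer cells of a type and less RNA per cell cannot be told apart.

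**Figure D1:**
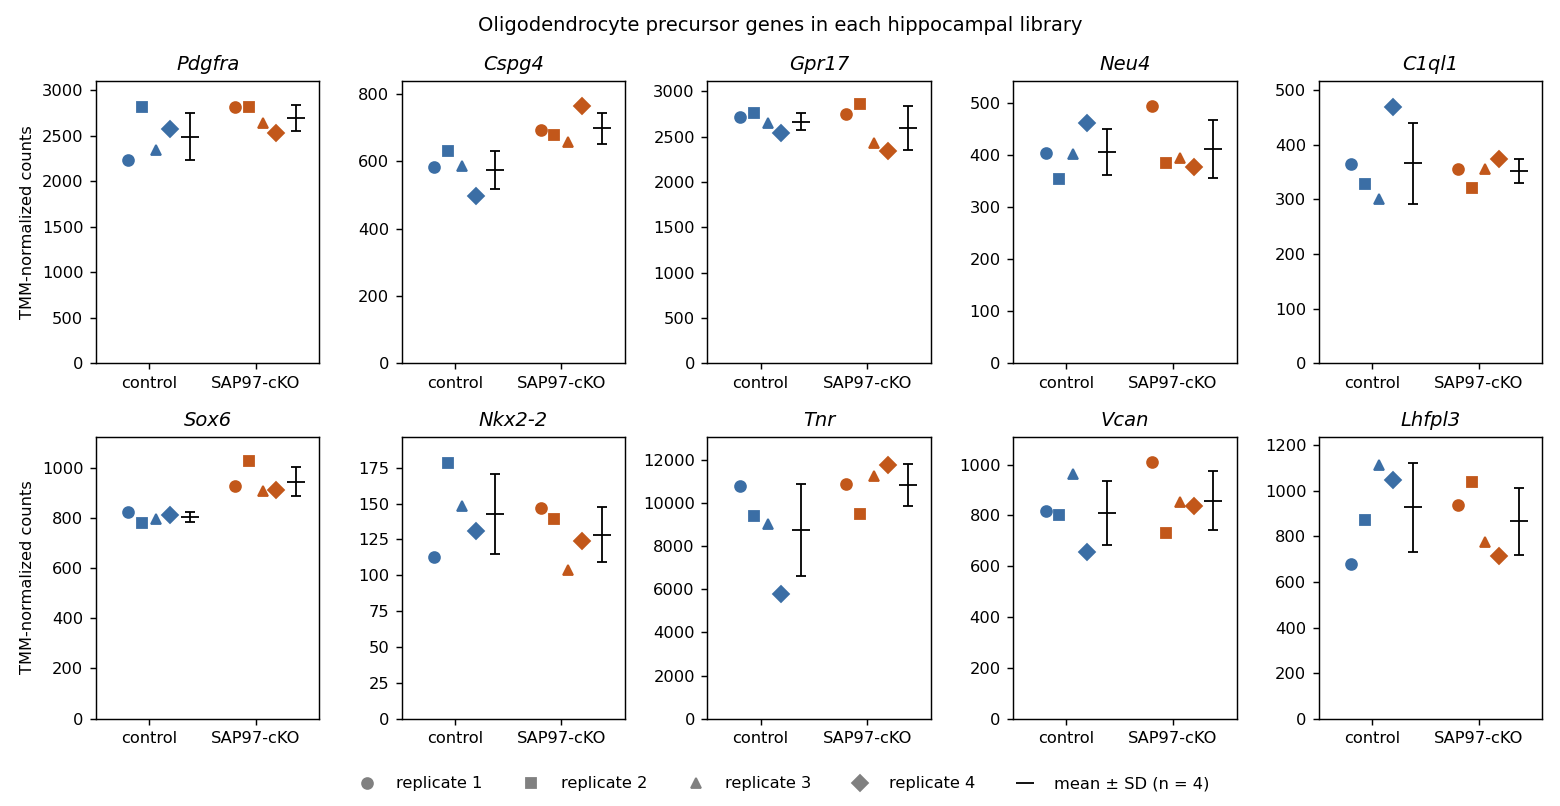
TMM-normalized counts (vertical axes, from 0) of the 10 precursor genes in the 4 control (blue) and 4 SAP97-cKO (orange) libraries. Marker shapes give the replicate number, and the black bar and whiskers are the mean ± SD. The groups are apart for Cspg4 and Sox6 and overlap for the other 8 genes.

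Pdgfra (ENSMUSG00000029231, chromosome 5, 75152292 to 75198215, plus strand in GRCm38, as for all positions here) encodes the receptor through which PDGF keeps precursors alive and dividing. It had 2236, 2814, 2341 and 2574 normalized counts in control replicates 1 to 4 and 2821, 2815, 2639 and 2529 in SAP97-cKO replicates 1 to 4. The groups overlapped, with the lowest value in a control. The means were 2491 ± 257 and 2701 ± 142 (log2 fold change 0.12 ± 0.081 SE; edgeR, adjusted p = 0.568). The 95% interval was -0.064 to 0.30. Fibroblasts also make Pdgfra, and of the 10 meningeal fibroblast genes 5 fell past the FDR and all had log2 fold changes below 0 (median -1.08). With the mean of these fibroblast genes as a covariate, Pdgfra was at 0.31 ± 0.16 SE (edgeR, adjusted p = 0.983). That mean did not overlap between genotypes, so this fit cannot separate the part of fibroblasts from that of genotype. The part of fibroblasts in the Pdgfra value was not tested otherwise.

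Cspg4 (ENSMUSG00000032911, chromosome 9, 56865033 to 56899870, plus strand) encodes the NG2 proteoglycan, by which precursors are usually stained. Control libraries held 584, 632, 588 and 498 normalized counts and SAP97-cKO libraries 693, 679, 659 and 764. Every SAP97-cKO value was above every control value, from 659 upward against at most 632. The SAP97-cKO mean was 121% of the control mean (log2 fold change 0.28 ± 0.093 SE, 95% interval 0.075 to 0.49). It missed the threshold in edgeR (adjusted p = 0.348). An exact permutation test, two-sided, gave p = 0.0286, and no smaller p can be had from 4 against 4. This p follows from the lack of overlap, is not adjusted over genes and adds no further support. Cspg4 was called by DESeq2 (adjusted p = 0.166) and by edgeR without control replicate 1 (adjusted p = 0.241). Mural cells also make Cspg4. Of 8 mural cell genes, 0 were past the FDR, all had log2 fold changes below 0 (median -0.24) and 3, the smooth muscle genes Acta2 and Tagln and the pericyte gene Anpep, were lower at an unadjusted p under 0.05. Pdgfrb, the pericyte receptor for PDGF, was at -0.014 ± 0.098 SE, and the part of mural cells in the Cspg4 value was not tested.

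Sox6 and Nkx2-2 are transcription factors of the lineage. Sox6 (ENSMUSG00000051910, chromosome 7, 115470872 to 116038796, minus strand) holds precursors in an undifferentiated state. It had the narrowest spread of the 10 genes among controls, with 825, 782, 797 and 811 normalized counts and a coefficient of variation of 2.31%. In SAP97-cKO it had 928, 1029, 908 and 913, all above the controls. The mean was 117% of control, and the 95% interval 0.079 to 0.39 (log2 fold change 0.23 ± 0.069 SE). Its adjusted p of 0.336 from edgeR was the lowest of the 10 and still missed the threshold. The exact two-sided permutation test gave p = 0.0286, which again only restates the lack of overlap. Sox6 was called by DESeq2 (adjusted p = 0.112) and by edgeR without control replicate 1 (0.208) or without SAP97-cKO replicate 1 (0.248). Interneurons also express Sox6. Of 8 interneuron genes 0 were past the FDR, 4 were above 0 and 4 below, and their median log2 fold change was -0.0063. Pvalb, of fast-spiking cells, was the only one with an unadjusted p under 0.05 (-0.56 ± 0.19 SE). The part of interneurons in the Sox6 value was not tested.

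Nkx2-2 (ENSMUSG00000027434, chromosome 2, 147177546 to 147194243, minus strand) encodes a homeodomain factor that rises as precursors commit to the oligodendrocyte fate. It was the gene with the fewest reads, 113, 178, 149 and 131 normalized counts in controls and 147, 139, 103 and 124 in SAP97-cKO, and the groups overlapped. The lowest log2 fold change of the 10 was that of Nkx2-2, -0.15 ± 0.17 SE (edgeR, adjusted p = 0.720). The 95% interval was -0.54 to 0.23. An antisense gene, Nkx2-2os, with 126 counts over the 8 libraries, overlaps 278 of its 2875 exon bases. Without a stated strand setting, the reads of both in that stretch cannot be told apart.

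Gpr17 and Neu4 mark precursors on the way to differentiation. Gpr17 (ENSMUSG00000052229, chromosome 18, 31942997 to 31949636, minus strand) encodes a G protein-coupled receptor that is lost again before myelin is made. Control libraries held 2713, 2757, 2655 and 2537 normalized counts and SAP97-cKO libraries 2748, 2859, 2427 and 2347. Replicate 1 of SAP97-cKO lay within the control range, replicate 2 above every control and replicates 3 and 4 below every control. The means were 2666 ± 95.4 and 2595 ± 247 (log2 fold change -0.039 ± 0.075 SE, 95% interval -0.21 to 0.13; edgeR, adjusted p = 0.854). Neu4 (ENSMUSG00000034000, chromosome 1, 94020451 to 94028334, plus strand), a sialidase, had 404, 355, 402 and 463 normalized counts in controls and 496, 385, 394 and 377 in SAP97-cKO. SAP97-cKO replicate 1 was the highest of the 8 and the other 3 lay within the control range (log2 fold change 0.025 ± 0.12 SE, 95% interval -0.24 to 0.29, and -0.022 without scaling).

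C1ql1 and Lhfpl3 belong to the genes by which precursors stand out from other glia in cell atlases. C1ql1 (ENSMUSG00000045532, chromosome 11, 102939264 to 102946688, minus strand) encodes a secreted C1q-like protein. It had 364, 329, 301 and 469.8 normalized counts in controls and 356, 322, 357 and 375 in SAP97-cKO. The 4 SAP97-cKO values lay within the control range (log2 fold change -0.055 ± 0.14 SE, 95% interval -0.36 to 0.25). Lhfpl3 (ENSMUSG00000106379, chromosome 5, 22746059 to 23275597, plus strand), a gene for a membrane protein of the Lhfp-like family, had 679, 872, 1115 and 1049 in controls and 936, 1039, 775 and 713 in SAP97-cKO. Its spread within each group, with coefficients of variation of 21.0% and 17.2%, was wider than the difference between the means (log2 fold change -0.10 ± 0.16 SE, 95% interval -0.47 to 0.26).

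Tnr and Vcan encode matrix molecules that bind each other. Tnr (ENSMUSG00000015829, chromosome 1, 159523769 to 159931729, plus strand), the gene for tenascin-R, was by count the most abundant of the 10. Control libraries held 10784, 9381, 9039 and 5761 normalized counts and SAP97-cKO libraries 10869, 9511, 11256 and 11766. Control replicate 4 was below the rest, and the other 3 controls overlapped SAP97-cKO. The SAP97-cKO mean was 124% of control, the largest relative difference of the 10 (log2 fold change 0.31 ± 0.16 SE; edgeR, adjusted p = 0.461). Without control replicate 4 the log2 fold change was 0.16 (adjusted p = 0.492), and without control replicate 1 it was 0.43 and past the threshold (0.248). Vcan (ENSMUSG00000021614, chromosome 13, 89655312 to 89742509, minus strand), the gene for versican, had 816, 800.2, 962 and 657 in controls and 1010.1, 729, 853 and 838 in SAP97-cKO (log2 fold change 0.084 ± 0.13 SE, 95% interval -0.20 to 0.37). The groups overlapped, and control replicate 4 was again the lowest.

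Other genes of this matrix were read beside them. Of 8 proteoglycan, tenascin and link protein genes, 0 were past the FDR in edgeR, and at an unadjusted p under 0.05 there were 2 higher and 1 lower in SAP97-cKO. The most abundant were Ptprz1, a receptor phosphatase shared by precursors and astrocytes (log2 fold change 0.17 ± 0.084 SE), and Hapln4, a link protein gene (0.26 ± 0.17). The 2 higher genes, named here because of their values, were Tnc (0.52 ± 0.13; edgeR, adjusted p = 0.316) and Ncan (0.31 ± 0.095, adjusted p = 0.341), the genes of tenascin-C and neurocan. The lower one was Hapln2 (-0.47 ± 0.21), a link protein gene of oligodendrocytes at the node of Ranvier. DESeq2 called 2 of the 8, beside 6.75% of the genes it gave an adjusted p. For Tnc and Ncan, the 4 SAP97-cKO libraries lay above the 4 controls. Summed normalized counts of 7 hippocampal neuron genes were 316351 to 351168 in controls and 341407 to 397612 in SAP97-cKO, and those of 6 astrocyte genes 183596 to 209580.4 and 193719.9 to 242473. Their part in the Tnr, Tnc and Ncan values was not tested.

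Read per kilobase of exon, the order of the 10 genes was not that of their counts. Control means ran from 48.2 normalized counts per kilobase for Cspg4 to 679 for Tnr. Gpr17 was second with 513 per kilobase, although Tnr lay below it in control replicate 4. They were followed by Lhfpl3 (289), Pdgfra (249) and C1ql1 (248), which lay within their spread of each other. Neu4 had 87.6 per kilobase. Vcan (55.9), Sox6 (54.2), Nkx2-2 (49.7) and Cspg4 formed the low end, each nearer to its neighbour in this order than the larger of their SDs. In SAP97-cKO the range was 44.6 for Nkx2-2 to 843 for Tnr per kilobase. The lengths are of the union of all annotated exons, which can exceed the transcript made in this tissue.

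Other lists of the lineage were read beside the precursor genes, and no list was tested as a whole. Among 12 further genes of precursors or of the whole lineage, 0 were past the FDR and 0 had an unadjusted p under 0.05 in edgeR. Of these 12, 9 were below 0 and 3 above, and their median log2 fold change was -0.098. The most abundant were Luzp2 (-0.095 ± 0.098 SE) and Olig1, a factor of the whole lineage (-0.14 ± 0.11). Among 10 genes of newly formed oligodendrocytes, 9 were below 0 and 0 were past the FDR, and the median was -0.35. Enpp6, Bmp4 and Cnksr3, named for their values, were the 3 with an unadjusted p under 0.05 (-0.56 ± 0.20, -0.54 ± 0.22 and -0.53 ± 0.23). Bcas1, a marker of cells starting to myelinate, was at -0.41 ± 0.21 and Myrf, the factor that switches myelin genes on, at -0.28 ± 0.17. Among 12 myelin genes all 12 were below 0 and 8 had an unadjusted p under 0.05, where 7.01% of all genes were lower at that level. The myelin median was -0.49, and 0 of the 12 were past the FDR in edgeR or limma-voom. DESeq2 called 5 of them, 1 of the 10 newly formed oligodendrocyte genes and 0 of the 12 further genes, beside 6.75% over all. With control replicate 1 left out, edgeR called 10 of the myelin genes, beside 10.2% of all genes. With SAP97-cKO replicate 1 left out it called 11 of them, beside 4.32%.

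**Figure D2:**
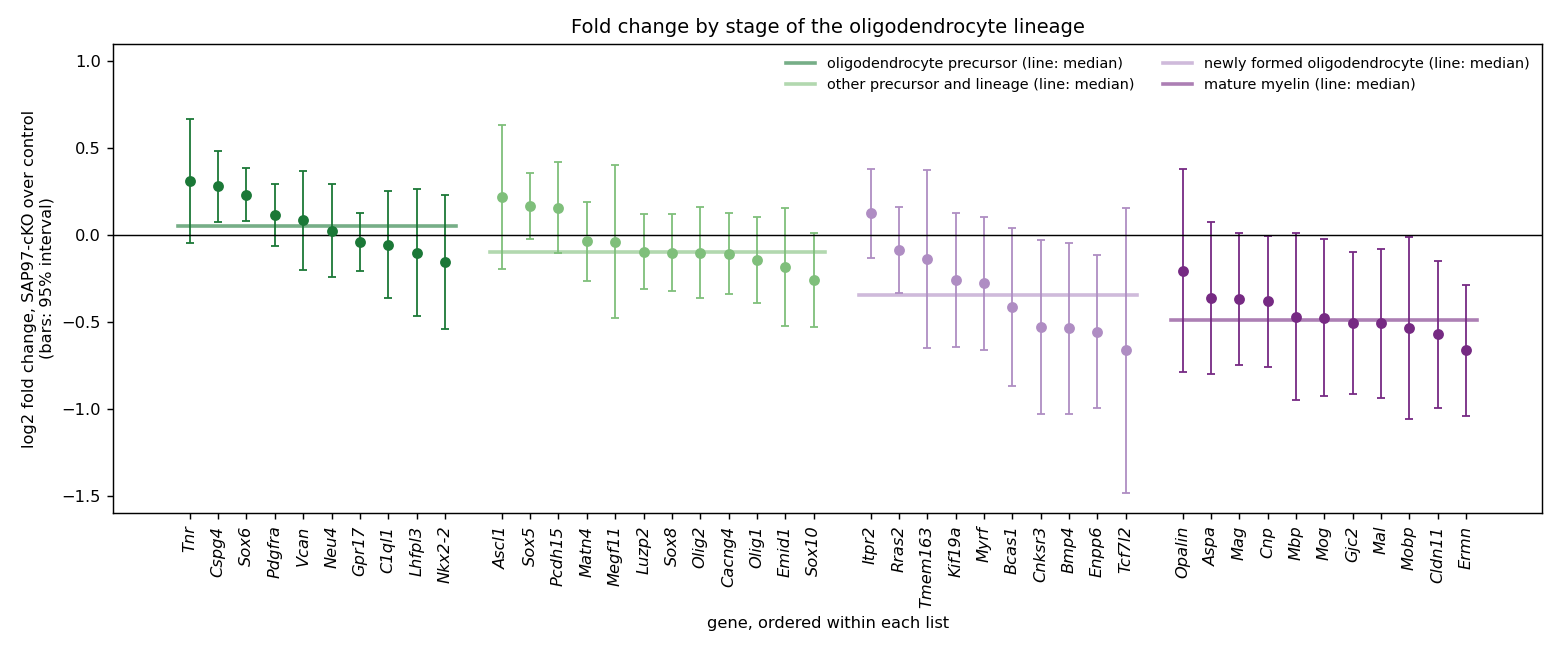
Log2 fold change of SAP97-cKO over control (points) with its 95% interval from edgeR (bars) for the genes of 4 lists along the oligodendrocyte lineage. Horizontal lines are medians over each whole list, including 1 myelin gene that is not drawn, and were 0.054 for precursor genes, -0.098 for other precursor and lineage genes, -0.35 for newly formed oligodendrocytes and -0.49 for mature myelin.

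Mbp, the most abundant myelin gene, encodes a structural protein of the sheath. It averaged 117813 ± 24807 and 85013 ± 27871 normalized counts in the control and SAP97-cKO groups (log2 fold change -0.47 ± 0.22 SE; edgeR, adjusted p = 0.428). The list means were also compared by library. As the mean log2 CPM of the list relative to the control mean, control replicates 1 to 4 were at -0.45, 0.19, 0.015 and 0.24 for myelin and at -0.041, 0.042, 0.038 and -0.038 for the precursor genes. SAP97-cKO replicates 1 to 4 were at 0.064, -0.62, -0.58 and -0.77 for myelin and at 0.18, 0.084, 0.0093 and 0.038 for the precursor genes. Control replicate 1 had the lowest control value and SAP97-cKO replicate 1 the highest SAP97-cKO value in all 12 myelin genes, so that the groups overlapped in each. Among the precursor genes, replicate 1 was the lowest control in 3 of 10 and the highest SAP97-cKO library in 4 of 10.

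**Figure D3:**
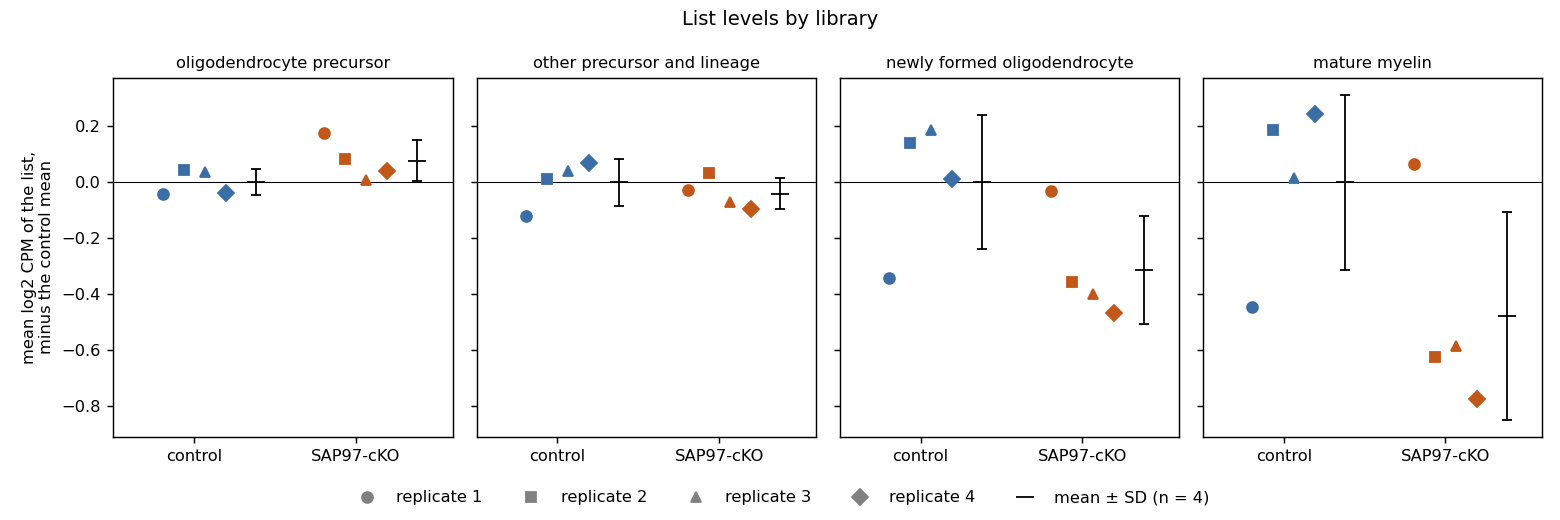
Mean log2 CPM of the genes of each list in each library, minus the mean of the 4 controls (blue, control; orange, SAP97-cKO; black, mean ± SD). The mean of the precursor list stays within -0.041 to 0.18 in the 8 libraries, while that of the myelin list runs from -0.77 to 0.24. Single precursor genes can vary more, as Tnr did (5761 to 10784 normalized counts in controls).

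The difference between precursor and myelin genes was then compared as a ratio within each library, which does not depend on scaling. Pdgfra and Mog are the usual markers of the first and last stage. Mog, a protein of the outer myelin surface, had 2537, 4066, 3537 and 4367 normalized counts in controls and 3712, 2396, 2330.2 and 2001 in SAP97-cKO (log2 fold change -0.47 ± 0.20 SE; edgeR, adjusted p = 0.413). The log2 ratio of Pdgfra to Mog counts was -0.18, -0.53, -0.60 and -0.76 in control replicates 1 to 4 and -0.40, 0.23, 0.18 and 0.34 in SAP97-cKO replicates 1 to 4. Since Pdgfra has 10024 exon bases and Mog 1704, a log2 ratio above 0 does not mean more transcripts of Pdgfra than of Mog. The ratio was above 0 in 3 SAP97-cKO libraries and in 0 control libraries, and SAP97-cKO replicate 1 lay among the controls. The means were -0.52 ± 0.24 and 0.088 ± 0.33 (SD, n = 4 each), a 1.52-fold difference in the ratio that missed p = 0.05 (p = 0.0571, two-sided, by exact permutation over 70 assignments). The ratio of Cspg4 to Mag, a myelin adhesion protein, gave a 1.57-fold difference with the same p of 0.0571 by the exact permutation test. These ratios are not independent, since Mog and Mag were both lowest in control replicate 1 and highest in SAP97-cKO replicate 1 of their groups. In the first ratio Mog had the larger log2 fold change (-0.47, against 0.12 for Pdgfra). With 1 library left out in turn, the difference for Pdgfra over Mog stayed between 0.52 and 0.77 on the log2 scale.

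**Figure D4:**
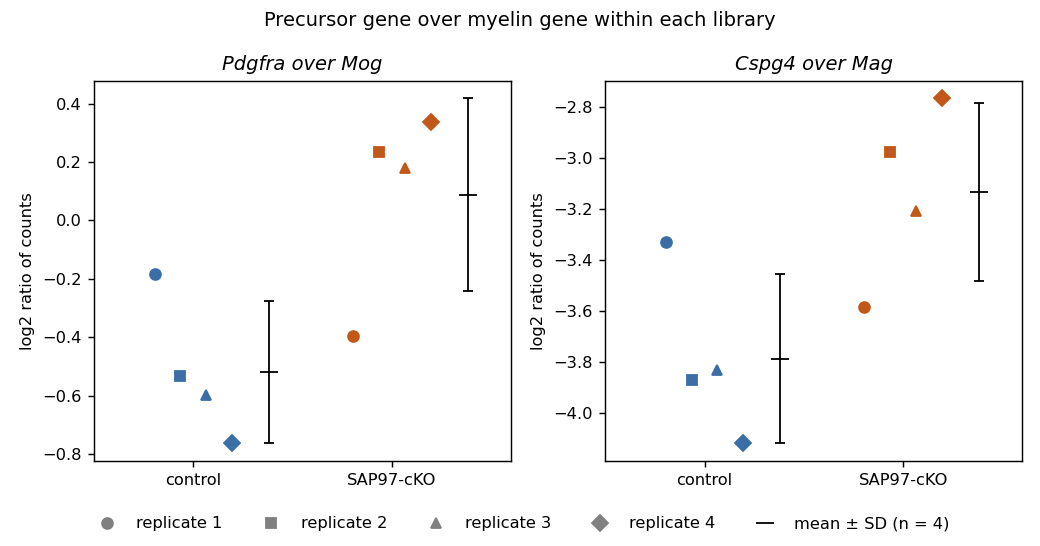
Log2 ratio of the counts of a precursor gene to those of a myelin gene within each library (Pdgfra over Mog, left; Cspg4 over Mag, right) for control (blue) and SAP97-cKO (orange), with the mean ± SD in black. In both panels 3 SAP97-cKO libraries lie above all controls and replicate 1 does not.

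Of 5 PDGF ligand and receptor genes, 0 were past the FDR in edgeR, 4 were below 0 and 1 above, 1 was higher and 1 lower at an unadjusted p under 0.05, and the median log2 fold change was -0.014. Pdgfa, the main ligand of precursors, averaged 1089 ± 29.6 and 1082 ± 44.3 normalized counts in the control and SAP97-cKO groups (log2 fold change -0.0099 ± 0.062 SE). Pdgfb, a ligand made by endothelial cells and neurons, averaged 814 ± 52.1 and 945 ± 80.0 (0.22 ± 0.082; edgeR, adjusted p = 0.38). Pdgfd, a ligand of Pdgfrb and named for its values, averaged 373 ± 67.6 and 235 ± 30.2 (-0.67 ± 0.15; edgeR, adjusted p = 0.283) with no overlap between the groups. DESeq2 called 1 of the 5, beside 6.75% of the genes it gave an adjusted p. Cell cycle genes, which dividing precursors express beside the neural progenitors of the dentate gyrus, were few in reads. Of 8, 0 were past the FDR in edgeR or DESeq2 and 0 had an unadjusted p under 0.05. Mki67 averaged 79.1 ± 10.9 and 82.5 ± 8.52 normalized counts in the control and SAP97-cKO groups, and Top2a 82.5 ± 29.4 and 84.9 ± 9.0.

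Outside the list, the genes whose levels over the 8 libraries followed the mean standardized log2 CPM of the 10 most closely were Spag9 (Pearson r = 0.980), Gm17501 (0.951), Patz1 (0.951), Gm9946 (0.940) and Prex1 (0.927). These are the highest values among all genes tested, taken over only 8 libraries, and are given as a description. None of the 5 was past the FDR in edgeR (lowest adjusted p = 0.414), where 1, Gm9946, had an unadjusted p under 0.05. Gm17501 and Gm9946 were near the limit of reading, with control means of 10.1 and 9.36 normalized counts. The profile they followed was highest in SAP97-cKO replicate 1 and lowest in control replicate 1.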

How the data were processed

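RNA-seq counts of 4 control and 4 SAP97-cKO male hippocampi were used. The authors aligned the reads with STAR 2.5.3a to mm10 (GRCm38.p5), discarded ribosomal and mitochondrial reads and drew reads to a common depth with PORT before counting on Ensembl annotation. These deposited counts are whole numbers without further scaling, and the sources used here do not state a strand setting. The authors' own log2 fold changes, p-values and q-values in the same table were not used. Each library held 37388177 to 37426572 counts, and no library was a repeat of another (chi-square per gene of 9.08 to 67.2).

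Genes were filtered with filterByExpr by genotype (minimum count 10, minimum total 15), scaled by TMM (factors 0.964 to 1.03) and tested between genotypes by quasi-likelihood (edgeR 4.0.16, R 4.3.3). Adjusted p-values of the main test follow Benjamini and Hochberg over the 16251 genes, and calls use the study's FDR of 0.25. Each alternative fit was adjusted over its own genes, 15293 in DESeq2. The standard error is the size of the log2 fold change divided by the root of F. Single values were compared by exact permutation tests. The alternatives were limma-voom (3.58.1), DESeq2 (1.42.0), 2 other scalings, 2 other filters, the replicate block, an FDR of 0.05, 2 covariates and leaving out each library. The test was checked on simulated counts.

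Positions and exon lengths are from GENCODE M21 for GRCm38. Exons of 5 of the 10 genes (Gpr17, Lhfpl3, Nkx2-2, Pdgfra and Tnr) overlap a gene on the other strand. The members and the 14 other gene lists were chosen with earlier results of these data known. All members are named, and from each other list the genes past the threshold and the 2 most abundant, plus the 5 genes most alike to the members. List genes behind a small count at an unadjusted p under 0.05 are named as well, and were chosen after their values were seen. The single values of 2 list genes are not reported here, and both count in the list totals. The ratio used a pseudocount of 0.5.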

Additional observations from a re-analysis of the deposited data

Results flagged for a closer look

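In 86 groups of 4 libraries examined (the precursor genes, the other named genes and the Pdgfra to Mog ratio, each in both genotypes), 8 held a library farther from the other 3 than Dixon's 95% limit allows, where chance gives about 1 in 20. Among the precursor genes, these were Neu4 in SAP97-cKO replicate 1 (496 normalized counts against 377 to 394 in the other 3) and Sox6 in SAP97-cKO replicate 2 (1029 against 908 to 928). SAP97-cKO replicate 1 was the library that stood apart in 6 of the 8, always upward. Beside Neu4 these were, in normalized counts, Bcas1 (6721 against 3781 to 3919) and Mbp (126685 against 69227 to 74255) of the oligodendrocyte lineage. Of the astrocyte and microglia genes, they were Slc1a2 (153086 against 123246 to 126913), Slc1a3 (33626 against 27759.7 to 28160.4) and Csf1r (4207 against 3453 to 3559.7). In controls, Slc6a13 (383 against 494 to 515) was low in replicate 3.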

How the results depend on the processing

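Of the genes tested, edgeR called 48 at an FDR under 0.25. The count was 1033 with DESeq2, 95 without scaling, 104 without a filter, 256 with the replicate block, 0 with the meningeal fibroblast or the mature myelin covariate and 0 at an FDR under 0.05 (637, 698 and 1907 genes at an unadjusted p under 0.05), and ran from 0 to 1675 with 1 library left out. EdgeR called 0 genes without control replicate 2, SAP97-cKO replicate 3 or SAP97-cKO replicate 4. The precursor genes called were 0 in each setting with 8 libraries except DESeq2, which called 2, and 0 to 3 with 1 library left out (3 without control replicate 1, 1 without SAP97-cKO replicate 1). Myelin genes called were 5 with DESeq2, 1 without a filter and 0 to 11 with 1 library left out (10 without control replicate 1, 11 without SAP97-cKO replicate 1). The median of the precursor genes was 0.15 with the myelin covariate and -0.026 to 0.092 with 1 library left out, below 0 without SAP97-cKO replicate 1, and that of the myelin genes -0.70 to -0.39. Dlg1 lost its call with the fibroblast covariate (-0.44), the myelin covariate (-0.80) and an FDR of 0.05 (-0.86), and ran from -1.0 to -0.78 with 1 library left out. The cause of these changes was not tested. Fibroblast means did not overlap between genotypes, so the fibroblast covariate cannot be told from genotype. Myelin means of SAP97-cKO replicates 2, 3 and 4 lay below every control, so the myelin covariate is partly aligned with genotype too. The sign turned for Gpr17 (0.14), Neu4 (-0.18) and Vcan (-0.18) with the fibroblast covariate, for Lhfpl3 (0.14) and Nkx2-2 (0.065) with the myelin covariate and for Neu4 without scaling (-0.022). With 1 library left out, it turned for Gpr17 (-0.088 to 0.011), Neu4 (-0.069 to 0.094), C1ql1 (-0.13 to 0.089), Lhfpl3 (-0.22 to 0.0089) and Vcan (-0.0028 to 0.19). Pdgfra, Cspg4, Tnr and Sox6 stayed above 0 in every setting and with every library left out. A fit without replicate 1 of both groups, tried after seeing the data, was dropped since it picks libraries by the myelin values being tested. Its values are not given. Same-numbered libraries did not deviate together throughout (r from -0.062 to 0.26), and the main test did not pair the mice by number. Replicates 2, 3 and 4 of the controls each correlated best with their own number. Choroid plexus sums also ranked the numbers alike in both groups. The labels do not explain the numbers, so whether they pair the mice is unknown. With the replicate block 7 of the 8 choroid plexus genes, 8 of the 10 meningeal fibroblast genes, 2 matrix genes and 1 gene each of the PDGF, mural cell and interneuron lists were called. With it no precursor or myelin gene was called (lowest adjusted p from edgeR 0.391 and 0.264), and the Pdgfra to Mog ratio, paired by number, differed by 0.61 (exact sign-flip permutation, p = 0.25, where the smallest possible is 0.125). With 4 mice per group, 95% intervals on the SAP97-cKO over control fold were 0.867 to 1.09 for Gpr17 and 0.687 to 1.17 for Nkx2-2. Smaller differences in these 2 genes could not be told from none.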

Other observations

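Other glial and vascular genes of these libraries were read from lists chosen in the same way. Of 6 astrocyte genes, 0 were past the FDR in edgeR and the median log2 fold change was 0.072. Those with an unadjusted p under 0.05, named for their values, were Aqp4, the water channel of astrocyte endfeet (0.43 ± 0.11 SE, groups not overlapping), and Gfap (0.29 ± 0.12). The most abundant, the glutamate transporter genes Slc1a2 and Slc1a3, were at 0.11 ± 0.092 SE and 0.016 ± 0.12. Of 6 microglia genes, 0 were past the FDR and 0 had an unadjusted p under 0.05 (median -0.034), with Csf1r, the receptor on which microglia depend, at 0.051 ± 0.080. Of 6 endothelial genes, 0 were past the FDR, 0 had an unadjusted p under 0.05 and all were below 0 (median -0.22), among them Flt1 at -0.0014 ± 0.17 and Slco1a4 at -0.17 ± 0.15. Rgs5, the most abundant mural cell gene, was at -0.22 ± 0.13.

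Of 7 hippocampal neuron genes, 0 were past the FDR and 3 (Camk2a, Wfs1 and Rbfox3) were higher at an unadjusted p under 0.05 (median 0.19). Camk2a, a kinase gene of excitatory neurons, was at 0.28 ± 0.10 and Snap25, a gene of the vesicle release machinery, at -0.030 ± 0.076. The interneuron genes Gad1 and Sst were at -0.049 ± 0.080 and -0.016 ± 0.15. Of 8 choroid plexus genes, in edgeR without a replicate block, 0 were past the FDR, 0 had an unadjusted p under 0.05 and all were below 0 (median -1.48). Ttr, the transthyretin gene, was at -1.48 with a standard error of 1.07, and Kl at -1.03 ± 0.57. Of the meningeal fibroblast genes, Ogn (-1.32 ± 0.21), Aldh1a2 (-1.25 ± 0.24), Col3a1 (-1.22 ± 0.23), Slc6a13 (-1.14 ± 0.24) and Col1a2 (-1.01 ± 0.18) fell in SAP97-cKO, with adjusted p-values from edgeR of 0.143 to 0.25. DESeq2, which called 6.75% of the genes it gave an adjusted p, called 8 of the 10. It also called 3 mural cell, 1 interneuron, 1 astrocyte and 2 hippocampal neuron genes, but 0 choroid plexus, microglia or endothelial genes. Limma-voom called 5 meningeal fibroblast genes and 0 genes of every other list. The 2 most abundant of the fibroblast list were not past the threshold, Igf2 at -0.78 ± 0.41 and Dcn at -0.0076 ± 0.42.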
